A study of Mus musculus with 8 samples.

Results

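The collagen genes of the mouse were examined in whole ovaries of juvenile mice. Collagen genes were taken by their symbols (Col, a type number, the letter a and a chain number), and 44 of the 45583 gene symbols in the deposited count table met this rule. Of the 44 genes, 11 encode fibrillar collagens, 6 encode the type IV chains of basement membranes and 27 encode other collagens. Ovaries came from female C57/Bl6 mice at 3 weeks of age, 1 ovary and 1 library per animal, with 4 wild type (WT) animals and 4 animals lacking ghrelin O-acyltransferase (GOAT KO). GOAT, encoded by Mboat4, is the enzyme that acylates the gut peptide ghrelin. It was deleted in the whole animal, and both genotypes were littermates from crosses of heterozygous parents. The comparison asked whether the collagens of the juvenile ovary differed between the genotypes, and whether fibrillar, basement membrane and other collagens differed alike.

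Between 16147216 and 19481798 reads were assigned to genes per library. The library numbers are the animal numbers, and values in 4 libraries are always given in the order 1118, 1119, 1120 and 1121 for WT and 1139, 1140, 1141 and 1146 for GOAT KO. Mboat4 (chr8:34115030-34125182, plus strand, GRCm38) had 1, 1, 1 and 3 reads in the WT libraries and 5, 7, 7 and 8 reads in the GOAT KO libraries, 33 in all, so the targeted gene went against the labels at a very low count. The groups below are therefore the libraries labelled WT and the libraries labelled GOAT KO, and every direction rests on these labels. The reads were counted over the whole gene and were not placed relative to the deleted part, so they do not decide whether the labels hold. The 6 granulosa cell markers summed to 4549 to 5519.8 CPM in the WT and 5052 to 5643 CPM in the GOAT KO libraries, and the 6 oocyte markers to 658 to 805 CPM in the WT and 661 to 769 CPM in the GOAT KO libraries, so markers of the labelled tissue were present in all libraries. Multidimensional scaling, based on the 500 most different genes of every library pair, placed GOAT KO 1139 at 1.21 and the other 7 libraries between -0.47 and 0.17 along dimension 1. Along dimension 2 WT 1118 stood at 0.76 and the other 7 libraries between -0.46 and 0.32. The 6 adipose tissue markers Adipoq, Plin1, Cidec, Retn, Lep and Cfd summed to 365 CPM (CPM are read counts scaled to a common library size) in GOAT KO 1139 and to 8.98 to 23.6 CPM in the other 7 libraries. A library of each group was left out by the study for its position on such a plot, without being named. WT 1120 and GOAT KO 1139 had the largest mean distances to their own groups, 1.40 and 1.62, and WT 1118 stood at 1.33. Results are therefore also given for the 6 libraries without WT 1120 and GOAT KO 1139 where a call changes or the log2 fold change moves by over 1.5 times. A 6-library set without WT 1118 was not fitted.

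Collagens are secreted proteins of 3 chains wound around each other, and each chain holds long stretches in which glycine, the only residue small enough for the centre of the helix, recurs after every pair of other residues. Fibrillar collagens (types I, II, III, V, XI, XXIV and XXVII) assemble into banded fibrils that bear load, with type V chains inside the fibrils of types I and III and type XI chains inside those of type II. Type IV collagen forms the sheet-like network of basement membranes, which in the ovary lie around follicles and blood vessels. The remaining collagens include the beaded filaments of type VI, the chains that attach to fibril surfaces (FACIT), the transmembrane collagens, the short-chain network collagens of types VIII and X, and the multiplexins of types XV and XVIII. In the ovary, fibrillar collagens are made largely by stromal and theca cells, and the stroma, the follicle wall and the vessels are remodelled as follicles grow.

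The gene sequences differ between the classes. The classes rest on the known structure of the proteins, so these values describe the classes and do not test them. In fibrillar collagen genes, 305 of 627 internal coding exons (48.6%) were 54 bases long, which is 6 repeats of glycine and a pair of further residues. The share was 12 of 284 (4.23%) in the type IV genes, 152 of 1006 (15.1%) in the other collagen genes and 668 of 151671 (0.440%) in other protein-coding genes of the GENCODE M21 annotation. The other class was mixed. Its type IX genes Col9a1, Col9a2 and Col9a3 stood at 38.9%, 46.7% and 46.7%, Col22a1 at 45.9% and Col19a1 at 31.3%, beside 42.9% to 56.9% in single fibrillar genes, and its remaining genes with internal coding exons stood at 17.9% or less. The longest uninterrupted run of glycine repeats was 216 to 344 repeats in the fibrillar chains, 39 to 66 in the type IV chains and 23 to 113 in the other chains. Separate runs of at least 5 repeats numbered 22 to 27 in the type IV genes and 2 to 3 in the fibrillar genes. They numbered 2 to 21 in the other genes, with 21 in Col16a1 and 20 in Col7a1, close to the type IV genes. One 54-base exon is shown for each of 6 genes that the results turn on, with its GRCm38 position, written 5′ to 3′ along the coding strand. The glycine codon that opens each repeat is in capitals, and the last repeat of Col1a1 holds a further glycine codon (ggt) in lower case:
Col1a1 (chr11:94939904-94939957, plus strand): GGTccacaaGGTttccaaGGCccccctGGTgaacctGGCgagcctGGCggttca
Col1a2 (chr6:4515481-4515534, plus strand): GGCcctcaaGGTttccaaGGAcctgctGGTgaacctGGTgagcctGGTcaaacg
Col3a1 (chr1:45325360-45325413, plus strand): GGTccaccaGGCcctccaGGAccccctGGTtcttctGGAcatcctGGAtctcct
Col5a3 (chr9:20801068-20801121, minus strand): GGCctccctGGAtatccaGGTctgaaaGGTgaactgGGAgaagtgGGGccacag
Col4a4 (chr1:82528752-82528805, minus strand): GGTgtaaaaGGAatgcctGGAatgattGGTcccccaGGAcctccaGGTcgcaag
Col9a2 (chr4:121043696-121043749, plus strand): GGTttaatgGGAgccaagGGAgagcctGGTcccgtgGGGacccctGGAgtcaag
Each is the first 54-base exon of its gene that begins in frame with a glycine codon and holds another after every pair of further codons. The exons were picked by this rule, so the unbroken recurrence of the 6 capitalised codons is not a result. They need not be typical of their genes, and in Col4a4 only 2 of 45 internal coding exons were 54 bases long.

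Levels were compared between genes as CPM per kb of transcript, since CPM alone rises with the length of a gene. Col3a1, the chain of type III collagen, had the highest level, 234 CPM per kb, in the mean over all 8 libraries, with the length of the transcript with the longest coding sequence. It was followed by Col1a2 at 209, Col6a1 at 143, Col4a1 at 129 and Col6a2 at 102. Col9a2, Col1a1, Col4a2, Col11a1 and Col6a4 completed the leading 10, at 84.7, 78.1, 76.9, 52.8 and 49.2 CPM per kb. The order depends on the transcript length taken, and when all annotated exons were counted in the length Col6a1 led at 134 CPM per kb, just above Col3a1 at 133, and Col1a2 stood at 90.1. All 44 collagens together took 0.693% to 0.885% of the reads on genes. Partner chains kept the following ratios. Col4a2 stood at 0.578 to 0.624 times the level of Col4a1 per kb, Col4a6 at 0.339 to 0.386 times that of Col4a5, and Col6a2 at 0.655 to 0.737 times that of Col6a1. The ratios were wider for Col1a1 over Col1a2 (0.307 to 0.419), Col6a3 over Col6a1 (0.195 to 0.277) and Col5a2 over Col5a1 (0.736 to 0.982). At the other end, Col2a1, Col19a1 and Col9a1 had 47, 14 and 12 reads over all 8 libraries, did not pass the filter on low counts and were not tested, which left 41 genes.

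**Figure D1:**
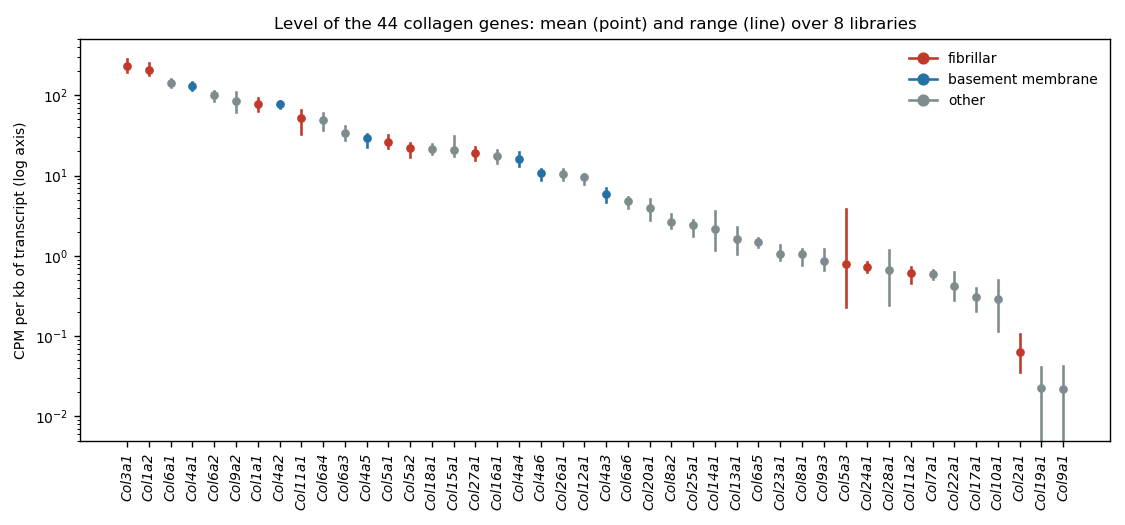
Mean (point) and range (line) of each of the 44 collagen genes over 8 libraries, in CPM per kb of transcript on a log axis, coloured by class. A line that runs off the lower edge includes a library without reads. Col3a1 and Col1a2 lead at 234 and 209 CPM per kb, and Col5a3 has the widest range of the fibrillar genes.

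Collagen messages were higher in the libraries labelled GOAT KO more often than lower, and the fibrillar class held most of the genes that passed an unadjusted threshold, but the differences were small and none of them passed the correction for all genes. At an unadjusted p under 0.05, 10 of 41 collagens (24.4%) differed, against 4.62% of all 16601 genes tested. Of these, 9 were higher and 1 was lower, against 2.49% and 2.13% of all genes. By class, 6 of 10 fibrillar genes were higher (Col1a1, Col1a2, Col3a1, Col5a1, Col5a2 and Col5a3) and none was lower, 1 of 6 type IV genes was higher (Col4a4), and 3 of 25 other genes differed (Col18a1 and Col8a2 higher, Col9a2 lower). The median log2 fold change was 0.22 over the fibrillar genes, 0.11 over the type IV genes and 0.06 over the other genes, beside -0.00035 over all genes tested. The criterion of the study adds a minimum fold change. With an absolute log2 fold change over 0.5 as well, only Col5a3 remained, 1 of 41 against 1.67% of all genes, and over 0.3 there were 4 (Col1a1, Col5a3, Col8a2 and Col9a2) against 2.85%. At an adjusted p under 0.05 (edgeR, Benjamini-Hochberg over all genes) no collagen was called, against 0.0241% of all genes, and the smallest adjusted p of a collagen was 0.983. Chains of one protein were measured in the same animals, so the counts over members are descriptions and not independent tests.

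In the 6 libraries without WT 1120 and GOAT KO 1139, 13 of 41 collagens differed at an unadjusted p under 0.05, 8 higher and 5 lower, against a background of 9.46% (4.81% higher and 4.65% lower). Only 3 fibrillar genes were then higher (Col1a1, Col1a2 and Col3a1) and Col27a1 was lower, and the medians were 0.19 for the fibrillar, 0.05 for the type IV and -0.0047 for the other genes. The genes past an absolute log2 fold change of 0.5 were then Col13a1 and Col22a1, 2 of 41 against 2.39% of all genes, and no longer Col5a3, and 4 genes passed 0.3 against 4.77%. No collagen passed an adjusted p under 0.05 (background 0.12%), with a smallest adjusted p of 0.280 in edgeR. Leaving out single libraries moved the count at an unadjusted p under 0.05 between 5, without GOAT KO 1141, and 16, without GOAT KO 1140. Counting only reads across annotated splice junctions, 9 of 36 collagens differed against 4.2% of all genes, 7 higher against 2.28% and 2 lower against 1.92%, with 6 of 10 fibrillar genes higher. Past an absolute log2 fold change of 0.5 there was 1 collagen in junction reads against 1.8%, past 0.3 there were 4 against 3.23%, and at an adjusted p under 0.05 there was none among collagens or other genes. In the junction reads of the 6 libraries, 7 of 36 collagens differed against 7.11%, and the balance turned, with 3 higher (Col1a1, Col1a2 and Col18a1) against 3.47% and 4 lower (Col6a4, Col9a2, Col13a1 and Col15a1) against 3.64%.

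**Figure D2:**
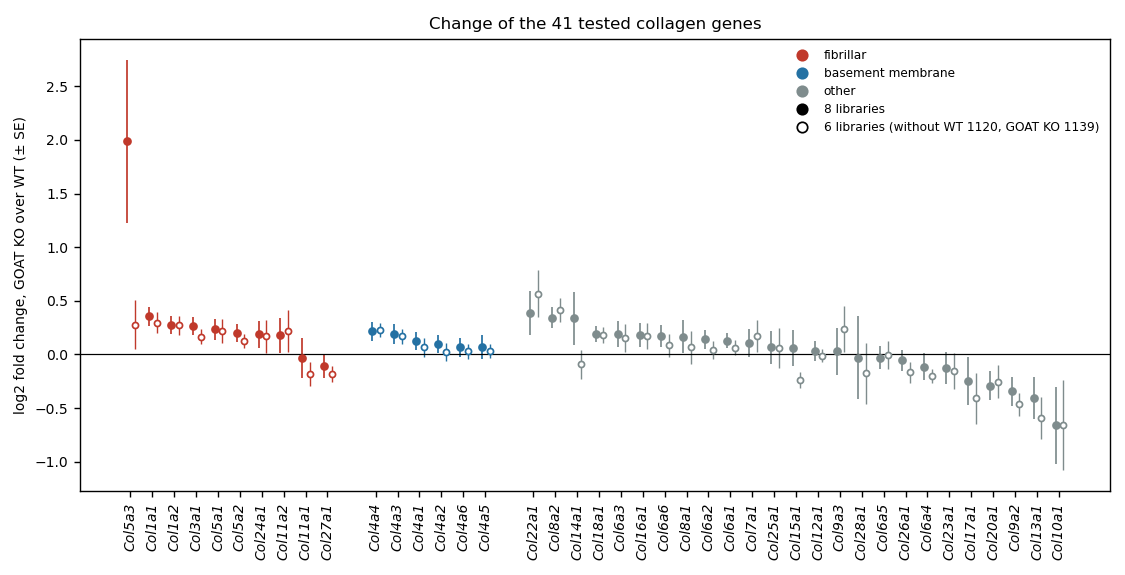
Log2 fold change (GOAT KO over WT, ± SE) of the 41 tested collagen genes, ordered within each class, from all 8 libraries (filled) and from 6 libraries (open). Most fibrillar genes and all type IV genes lie above 0 in both sets, the other collagens lie on both sides, and Col5a3 falls from 1.99 to 0.28 without GOAT KO 1139 and WT 1120.

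The chains of the main load-bearing fibrils, types I and III, were higher in the GOAT KO libraries. Col1a1 (chr11:94936224-94953042, plus strand), the major chain of type I collagen, stood at 438, 433, 381 and 374 CPM in the WT libraries and 550.2, 434, 556 and 539.7 CPM in the GOAT KO libraries. GOAT KO 1140 lay among the WT libraries, just under WT 1118, and the other 3 GOAT KO libraries lay above all WT libraries. The group means were 407 ± 33.8 against 519.9 ± 57.8 CPM (SD, n = 4 each), a difference larger than the spread between libraries (log2 fold change 0.36, SE 0.090, edgeR unadjusted p = 0.00238). Col1a2 (chr6:4504814-4541544, plus strand), which joins Col1a1 in type I collagen, stood at 962, 1022, 971 and 1099 CPM in the WT libraries and 1185, 1074, 1346 and 1302 CPM in the GOAT KO libraries. The groups overlapped only where GOAT KO 1140 lay below WT 1121, and the means were 1014 ± 63.0 against 1227 ± 122 CPM (SD, n = 4 each) (log2 fold change 0.28, SE 0.081, edgeR unadjusted p = 0.00619). Col3a1 (chr1:45311538-45349706, plus strand), whose product forms fibrils together with type I, stood at 1173, 1182, 1096 and 1287 CPM in the WT libraries and 1597, 1255, 1354 and 1479 CPM in the GOAT KO libraries. Again WT 1121 lay above GOAT KO 1140 and the groups were otherwise apart, with means of 1184 ± 78.5 against 1421 ± 149 CPM (SD, n = 4 each) (log2 fold change 0.26, SE 0.084, edgeR unadjusted p = 0.00985). Col1a1 and Col1a2 kept an unadjusted p under 0.05 in all 15 alternatives tried, and Col3a1 in 14 of 15, the exception being splice junction reads of 6 libraries. In the gene counts of the 6 libraries the log2 fold change of Col3a1 was 0.17 (edgeR unadjusted p = 0.0428).

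The type V chains Col5a1 and Col5a2, minor components that set the width of type I fibrils, were also higher, with less stable values. Col5a1 (chr2:27886425-28039514, plus strand) stood at 183, 193, 192 and 230.3 CPM in the WT libraries and 237, 197, 238 and 269 CPM in the GOAT KO libraries. WT 1121 lay within the GOAT KO range, and the difference between the means, 199.8 ± 20.8 against 235 ± 29.5 CPM (SD, n = 4 each), passed the unadjusted threshold (log2 fold change 0.24, SE 0.098, edgeR unadjusted p = 0.0356) but gave p values of 0.0937 without WT 1118, 0.0835 without WT 1119, 0.0692 without WT 1120, 0.0590 without GOAT KO 1139, 0.0736 without GOAT KO 1141 and 0.121 without GOAT KO 1146. In the 6 libraries the log2 fold change of Col5a1 was 0.21 (edgeR unadjusted p = 0.0821). Col5a2 (chr1:45374321-45503282, minus strand) stood at 142, 144, 112 and 143 CPM in the WT libraries and 151, 151, 149 and 169 CPM in the GOAT KO libraries. Every GOAT KO library lay above every WT library, although the nearest values were 144 and 149 CPM, and WT 1120 alone lay far below its group (means 135 ± 15.7 against 155 ± 9.66 CPM, SD, n = 4 each, log2 fold change 0.20, SE 0.086, edgeR unadjusted p = 0.0417). Its p was 0.0842 without WT 1120, 0.0527 without GOAT KO 1139, 0.0545 without GOAT KO 1140, 0.0561 without GOAT KO 1141 and 0.126 without GOAT KO 1146. The log2 fold change itself was 0.11 without WT 1120 and 0.13 in the 6 libraries (edgeR unadjusted p = 0.0706). Groups did not overlap for 3 collagens in all, Col5a2, Col8a2 and Col18a1, all higher in GOAT KO, against 2.92% of all genes tested (1.64% higher and 1.27% lower), and the exact two-sided permutation p of each, 0.0286, is the smallest that 4 against 4 libraries can give.

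The remaining fibrillar chains did not pass the threshold in all 8 libraries. Col11a1 (chr3:114030540-114220718, plus strand), the most abundant of them, encodes a chain found within fibrils and stood at 504, 488, 250.4 and 393 CPM in the WT libraries and 375, 475, 365 and 386 CPM in the GOAT KO libraries. WT 1120 held the lowest and WT 1118 the highest value, so the WT range enclosed the GOAT KO range (log2 fold change -0.03, SE 0.18, edgeR unadjusted p = 0.870, and -0.18 in the 6 libraries). Col27a1 (chr4:63214004-63334991, plus strand), a fibrillar collagen of cartilage and other tissues, stood at 172, 166, 118 and 145 CPM in the WT libraries and 130.0, 137, 149 and 139.7 CPM in the GOAT KO libraries, with WT 1120 lowest of all (log2 fold change -0.11, SE 0.11, edgeR unadjusted p = 0.323). Without WT 1120 and GOAT KO 1139 its log2 fold change was -0.18 (edgeR unadjusted p = 0.0355). Col24a1 and Col11a2 had values of at most 5.93 CPM, with log2 fold changes of 0.19 and 0.18 and unadjusted p of 0.161 and 0.297 in edgeR.

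**Figure D3:**
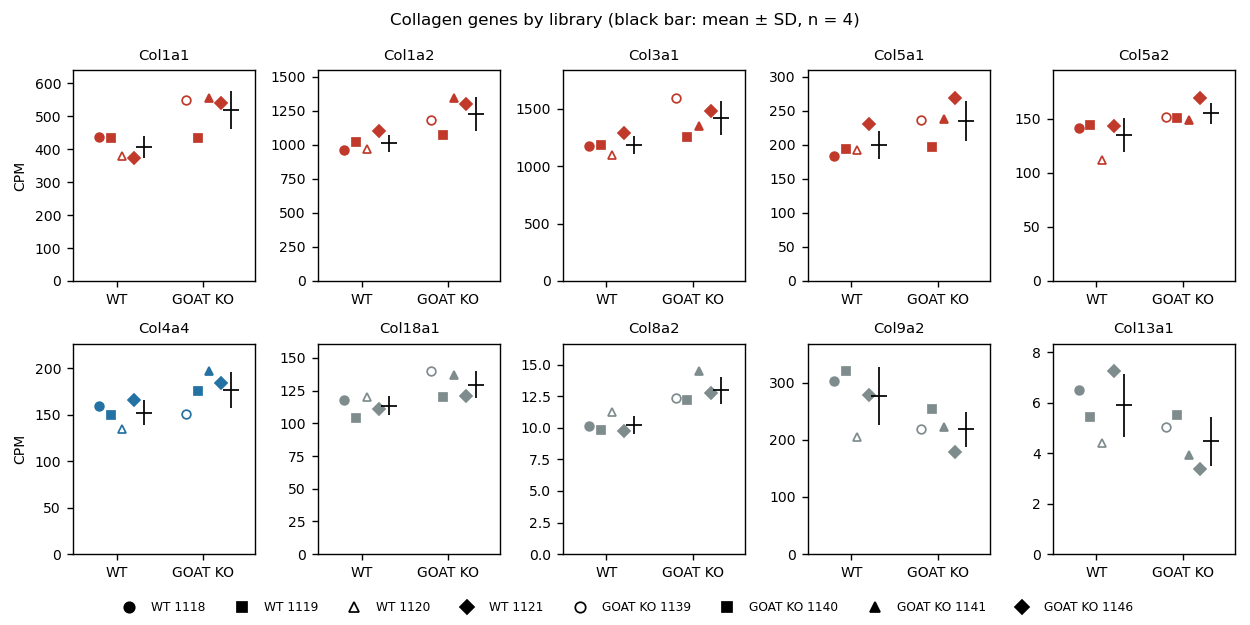
CPM of 10 collagen genes in each library (axes start at 0), with the mean ± SD of 4 libraries as a black bar and open symbols for WT 1120 and GOAT KO 1139. The points of Col5a2, Col8a2 and Col18a1 separate by group, while GOAT KO 1140 lies at WT levels for Col1a1, Col1a2 and Col3a1.

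Col5a3 (chr9:20770050-20815067, minus strand), the remaining type V chain, had the largest log2 fold change of all collagens, and this came from 1 library. It had 23, 46, 31 and 38 reads in the WT libraries and 396, 39, 49 and 43 reads in the GOAT KO libraries, which is 1.42, 2.56, 1.70 and 2.07 CPM in the WT libraries and 23.7, 2.38, 2.51 and 2.50 CPM in the GOAT KO libraries. GOAT KO 1139 stood alone, and the other GOAT KO libraries lay within the WT range. The fitted log2 fold change was 1.99 (SE 0.76, edgeR unadjusted p = 0.0246) and fell to 0.34 (edgeR unadjusted p = 0.146) without GOAT KO 1139 and to 0.28 (edgeR unadjusted p = 0.251) in the 6 libraries. Its p was 0.0641 without WT 1118. The excess was spliced collagen message, since GOAT KO 1139 held 160 reads over 43 of the 50 annotated Col5a3 junctions seen, against 2 to 13 reads over 2 to 11 junctions in the other libraries. Fat cell genes moved with it. All 5 tested adipose markers were higher at an unadjusted p under 0.05, against 2.49% of all genes, with Adipoq, the gene of the fat hormone adiponectin, at 1616 reads in GOAT KO 1139 and at 5 to 49 in the others. Cfd, the fat-derived protease adipsin, had 2710 reads there and 9 to 102 elsewhere, and Lep, which encodes leptin and was too low to be tested, had 91 reads there, 0 to 6 elsewhere and none in WT 1120 and GOAT KO 1146. Col15a1, a collagen of the zone under basement membranes, stood at 112, 99.7, 90.6 and 124 CPM in the WT libraries and 159.7, 98.0, 94.5 and 92.6 CPM in the GOAT KO libraries, and Col14a1, which binds to fibril surfaces, at 13.1, 11.7, 7.74 and 16.5 CPM in the WT libraries and 23.3, 12.8, 12.5 and 13.4 CPM in the GOAT KO libraries. Both were highest in GOAT KO 1139 and fell from log2 fold changes of 0.06 and 0.34 to -0.24 (edgeR unadjusted p = 0.0110) and -0.09 (edgeR unadjusted p = 0.498) in the 6 libraries. Some markers of other cell types were also highest in GOAT KO 1139. Of the 6 theca and steroidogenic markers this held for 3, with Star at 3903 reads there against 159 to 582 in the other libraries and Cyp17a1 at 10042 against 811 to 6469, and of the 8 stromal fibroblast markers for 2, with Postn at 825 reads against 324 to 466. It held for 4 of 7 surface epithelium, 2 of 5 oviduct, 2 of 7 smooth muscle and 1 of 7 striated muscle markers, and for none of the granulosa, oocyte, endothelium, leukocyte, blood and cartilage markers. The part of fat or of any other tissue in these values was not tested.

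**Figure D4:**
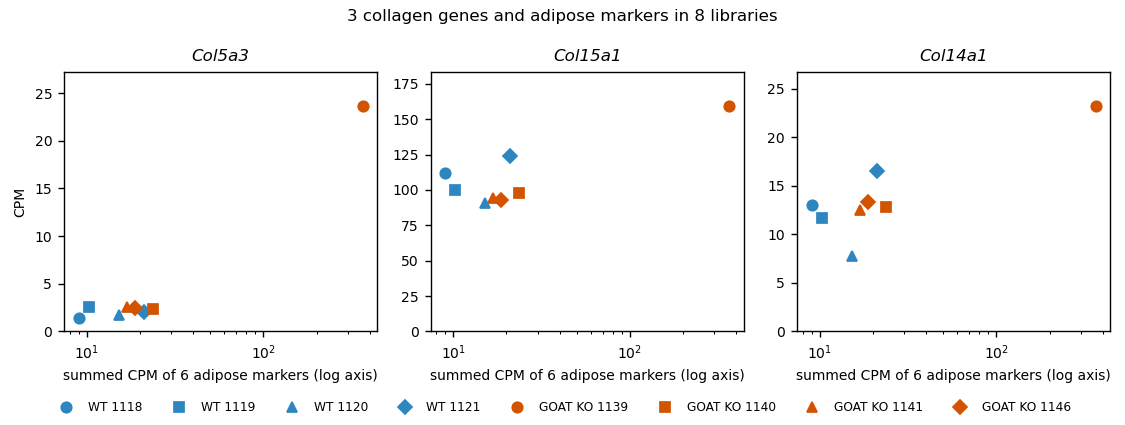
CPM of Col5a3, Col15a1 and Col14a1 against the summed CPM of 6 adipose markers (log axis) in 8 libraries. GOAT KO 1139, at 365 CPM of adipose markers, holds the highest value in each panel, and the other 7 libraries lie at 8.98 to 23.6 CPM.

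The 6 type IV chains of basement membranes all had positive log2 fold changes, between 0.07 and 0.22, and 1 of 6 passed the unadjusted threshold. The common direction rests in part on WT 1120, without which Col4a5 stood at -0.037 and Col4a6 at -0.014, and in the 6 libraries the log2 fold changes were 0.065 for Col4a1, 0.023 for Col4a2, 0.033 for Col4a5 and 0.028 for Col4a6. Col4a1 (chr8:11198423-11312826, minus strand) and Col4a2 (chr8:11312805-11449287, plus strand) encode the chains present in nearly all basement membranes. Col4a1 stood at 766, 798, 781 and 920.5 CPM in the WT libraries and 965, 781, 880.1 and 939 CPM in the GOAT KO libraries, and Col4a2 at 466, 457, 446 and 548 CPM in the WT libraries and 554, 461, 505 and 529 CPM in the GOAT KO libraries. WT 1121 lay with the higher GOAT KO libraries and GOAT KO 1140 with the WT libraries in both genes, so the groups overlapped (log2 fold change 0.13, SE 0.084, edgeR unadjusted p = 0.159 for Col4a1 and log2 fold change 0.10, SE 0.081, unadjusted p = 0.263 for Col4a2). Col4a3 (chr1:82586921-82722059, plus strand) and Col4a4 (chr1:82448423-82586849, minus strand) encode chains of more specialised basement membranes. Col4a3 stood at 51.0, 49.1, 40.7 and 50.3 CPM in the WT libraries and 48.8, 52.6, 59.5 and 56.9 CPM in the GOAT KO libraries (log2 fold change 0.19, SE 0.090, edgeR unadjusted p = 0.0570). Col4a4 stood at 159, 149, 134 and 166 CPM in the WT libraries and 151, 175, 197 and 184 CPM in the GOAT KO libraries. GOAT KO 1139 was here the lowest of its group and lay among the WT libraries, unlike for Col5a3, and the difference between the means, 152 ± 13.6 against 177 ± 19.6 CPM (SD, n = 4 each), passed the unadjusted threshold (log2 fold change 0.22, SE 0.090, edgeR unadjusted p = 0.0346). It did not do so when some single libraries were left out, with p values of 0.0802 without WT 1119, 0.0942 without WT 1120, 0.0560 without GOAT KO 1140, 0.128 without GOAT KO 1141 and 0.0814 without GOAT KO 1146. In the 6 libraries both passed, Col4a3 at a log2 fold change of 0.17 (edgeR unadjusted p = 0.0328) and Col4a4 at 0.23 (edgeR unadjusted p = 0.00496).

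Col4a5 (chrX:141475385-141689234, plus strand) and Col4a6 (chrX:141165403-141474076, minus strand), the X-linked pair, stood at 189, 198, 148 and 216 CPM in the WT libraries and 169, 216, 196 and 206 CPM in the GOAT KO libraries for Col4a5 and at 71.6, 72.3, 57.8 and 74.5 CPM in the WT libraries and 66.4, 79.4, 68.7 and 74.8 CPM in the GOAT KO libraries for Col4a6. WT 1120 was lowest in both genes and the groups overlapped (log2 fold change 0.07, SE 0.11, edgeR unadjusted p = 0.567 and log2 fold change 0.07, SE 0.090, unadjusted p = 0.472). The 3 pairs of type IV genes lie head to head. The starts of Col4a1 and Col4a2 are 21 bases apart, those of Col4a3 and Col4a4 have 71 bases between them, and 1308 bases lie between Col4a5 and Col4a6. Col4a3 stood at 0.355 to 0.388 times the level of Col4a4 per kb in the 8 libraries, and the groups of this ratio overlapped. The whole stretch between their starts, from RefSeq sequence of GRCm38.p6 on the plus strand, shows how little sequence separates both genes:
Col4a4 and Col4a3 (chr1:82586850-82586920): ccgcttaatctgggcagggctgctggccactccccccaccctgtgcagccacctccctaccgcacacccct
Of TATAAA (the TATA box), CCAAT and GGGCGG (the GC box), searched on both strands, none stood in this stretch.

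For contrast, the 150 bases before the starts of Col3a1, the collagen with the most reads, and of Col5a3, whose level differed in 1 library, hold such letters, given here in capitals on the strand of the gene:
Col3a1 (chr1:45311388-45311537, plus strand): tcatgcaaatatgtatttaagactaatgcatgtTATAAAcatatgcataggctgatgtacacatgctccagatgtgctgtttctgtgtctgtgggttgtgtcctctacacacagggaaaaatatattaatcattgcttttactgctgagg
Col5a3 (chr9:20815068-20815217, minus strand): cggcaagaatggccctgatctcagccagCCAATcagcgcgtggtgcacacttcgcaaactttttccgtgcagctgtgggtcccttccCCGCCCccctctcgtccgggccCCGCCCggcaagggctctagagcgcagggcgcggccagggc
Col3a1 holds TATAAA, and Col5a3 holds CCAAT and, on the opposite strand, GGGCGG (printed as CCGCCC). Promoters were found in RefSeq for 35 of the 44 collagens (38 promoters), and in this window TATAAA stood in 10.5% of them and in 7.57% of all 32851 promoters, CCAAT in 21.1% and 24.5%, and GGGCGG in 50.0% and 28.6%. These are descriptions of letters, and no factor binding was measured.

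Among the other collagens, Col8a2 and Col18a1 were higher and Col9a2 was lower in the GOAT KO libraries. Col9a2 (chr4:121039385-121055322, plus strand), a chain of the fibril-attached type IX collagen known from cartilage, stood at 303, 321, 204 and 279 CPM in the WT libraries and 218, 254, 222 and 179 CPM in the GOAT KO libraries. WT 1120 lay among the GOAT KO libraries, and the other WT libraries lay above all of them. The means were 277 ± 51.3 against 218 ± 30.5 CPM (SD, n = 4 each) (log2 fold change -0.34, SE 0.14, edgeR unadjusted p = 0.0303), and without WT 1120 and GOAT KO 1139 the log2 fold change was -0.47 (edgeR unadjusted p = 0.00144). Its p was 0.0812 without WT 1118, 0.0945 without WT 1119, 0.0564 without WT 1121, 0.0529 without GOAT KO 1141 and 0.0899 without GOAT KO 1146. Col8a2 (chr4:126286793-126314330, plus strand), a short-chain collagen of the network under the corneal endothelium and in vessel walls, stood at 10.2, 9.83, 11.3 and 9.70 CPM in the WT libraries and 12.4, 12.2, 14.5 and 12.7 CPM in the GOAT KO libraries. All GOAT KO libraries lay above all WT libraries (10.2 ± 0.702 against 13.0 ± 1.04 CPM, SD, n = 4 each, log2 fold change 0.34, SE 0.097, edgeR unadjusted p = 0.00504), and p stayed under 0.05 in all 13 alternatives that could be fitted. Col9a2 and Col8a2 both lie on chromosome 4 between 100 and 150 Mb, where 74 of 553 tested genes (13.4%) differed at an unadjusted p under 0.05 against 4.62% of all genes, and 19.7% against 9.46% in the 6 libraries. Col16a1, the other tested collagen in this region, did not pass (log2 fold change 0.18, SE 0.11, edgeR unadjusted p = 0.128). The part of this region in their values was not tested.

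Col18a1 (chr10:77052178-77166548, minus strand), the multiplexin of basement membranes whose end fragment is endostatin, stood at 118, 104, 120.3 and 111 CPM in the WT libraries and 140.0, 120.4, 137 and 121 CPM in the GOAT KO libraries. The groups did not overlap, but WT 1120 and the lowest GOAT KO library lay at 120.3 and 120.4 CPM (113 ± 7.27 against 129.5 ± 10.4 CPM, SD, n = 4 each, log2 fold change 0.19, SE 0.071, edgeR unadjusted p = 0.0210). The p was 0.0728 without WT 1119, 0.0549 without WT 1121, 0.0664 without GOAT KO 1139 and 0.0681 without GOAT KO 1141. Genes of this class that passed in the 6 but not in the 8 libraries were Col22a1, a FACIT collagen of tissue junctions, Col13a1, a transmembrane collagen, and Col6a4, a type VI chain, besides Col15a1. Col22a1 (chr15:71795795-72034227, minus strand) stood at 3.22, 2.50, 3.73 and 3.33 CPM in the WT libraries and 3.35, 3.24, 4.61 and 5.52 CPM in the GOAT KO libraries, and GOAT KO 1141 and 1146 alone lay above the WT range (8 libraries: log2 fold change 0.39, SE 0.20, edgeR unadjusted p = 0.0828, and 6 libraries: log2 fold change 0.57, SE 0.22, edgeR unadjusted p = 0.0257). Col13a1 (chr10:61838236-61979108, minus strand) stood at 6.50, 5.45, 4.39 and 7.25 CPM in the WT libraries and 5.03, 5.50, 3.94 and 3.37 CPM in the GOAT KO libraries, with overlapping groups (8 libraries: log2 fold change -0.41, SE 0.20, unadjusted p = 0.0649, and 6 libraries: log2 fold change -0.59, SE 0.20, edgeR unadjusted p = 0.0127). Col6a4 (chr9:105989454-106096783, minus strand) stood at 418, 378, 273 and 439 CPM in the WT libraries and 314, 363, 351 and 363 CPM in the GOAT KO libraries, with WT 1120 lowest of all 8 libraries (8 libraries: log2 fold change -0.12, and 6 libraries: log2 fold change -0.20, SE 0.065, edgeR unadjusted p = 0.0112). With single libraries left out, the log2 fold change of Col6a4 ranged from -0.25 to -0.038.

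Type VI collagen, a beaded filament close to cells and among the most abundant collagens here, showed no member past the threshold in 8 libraries, with 4 of its 6 genes at positive log2 fold changes. Col6a1 (chr10:76708792-76726168, minus strand) stood at 591, 536, 525 and 592 CPM in the WT libraries and 658, 555, 633 and 609 CPM in the GOAT KO libraries (log2 fold change 0.13, SE 0.071, edgeR unadjusted p = 0.0947). Col6a2 (chr10:76595762-76623630, minus strand) stood at 419.6, 378, 331 and 403 CPM in the WT libraries and 452, 361, 444 and 431 CPM in the GOAT KO libraries (log2 fold change 0.14, SE 0.090, edgeR unadjusted p = 0.149). In the 6 libraries their log2 fold changes were 0.063 and 0.043. The GOAT KO 1140 value was the lowest of its group in both, within the WT range. Of the 4 transmembrane collagens 3 had negative log2 fold changes, with a median of -0.19 over the class, and of the 7 tested FACIT collagens 5 were positive, with a median of 0.03. In the 6 libraries the median was -0.28 over the transmembrane collagens. Of the FACIT collagens 3 were then positive and 4 negative, with a median of -0.012. The genes of this class that passed no threshold in 8 or 6 libraries ranged from a log2 fold change of -0.66 (Col10a1, at most 1.58 CPM in a library) to 0.34 (Col14a1).

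As a share of the summed collagen level per kb, which is not affected by how much collagen message a library holds in all, the fibrillar class took 43.0%, 44.2%, 44.0% and 42.4% in the WT libraries and 46.4%, 45.6%, 46.5% and 47.5% in the GOAT KO libraries. No GOAT KO library lay within the WT range. The other collagens took 36.5 to 39.0 in the WT and 33.5 to 35.7 in the GOAT KO libraries (percent), and the type IV class 18.0 to 19.9 in the WT and 18.2 to 19.0 in the GOAT KO libraries (percent). The shares of a whole are tied to each other, so a higher fibrillar share lowers the rest, and Col3a1, Col1a2 and Col1a1 carry most of the fibrillar sum. Since RNA of whole ovaries was measured, more cells of a type and more RNA per cell cannot be told apart. The 8 stromal fibroblast markers summed to 1046 to 1308 CPM in the WT and 1158 to 1383 CPM in the GOAT KO libraries. Of the 8, 5 had positive log2 fold changes, while Pdgfra, Pdgfrb and Thy1 stood at -0.05, -0.16 and -0.09. Only Fn1 was higher at an unadjusted p under 0.05, 1 of 8 against 2.49% of all genes. The 6 theca and steroidogenic markers summed to 1967 to 3118 CPM in the WT and 2493 to 3165 CPM in the GOAT KO libraries, with none of the 5 tested past the threshold. The part of either cell type in the fibrillar values was not tested.

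**Figure D5:**
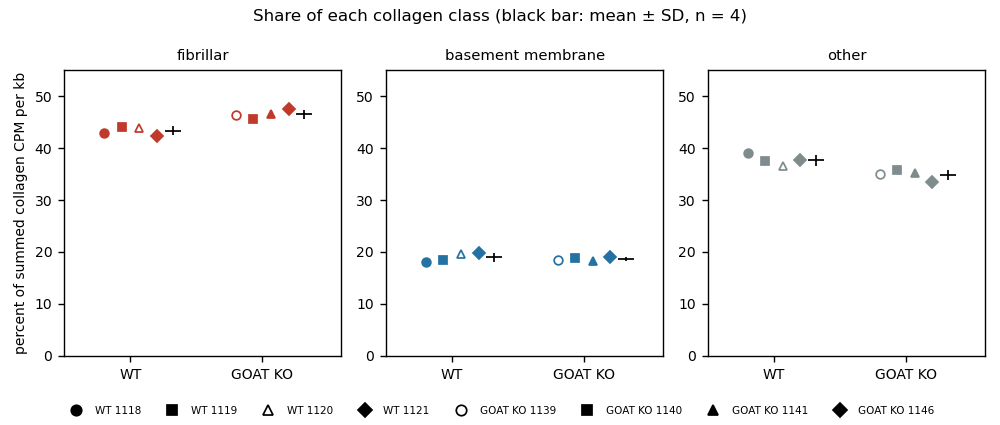
Share of fibrillar, basement membrane and other collagens in the summed collagen level (CPM per kb), in percent, per library with the mean ± SD (n = 4). The fibrillar share lies at 42.4% to 44.2% in the WT and at 45.6% to 47.5% in the GOAT KO libraries, and the type IV share overlaps.

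Genes that act on collagens after translation were examined as lists of the steps of the pathway. Of 20 genes for chain modification and folding, 3 were higher and none lower at an unadjusted p under 0.05, against 2.49% and 2.13% of all genes, and the median log2 fold change was 0.06. P4hb, which had the most reads of this list with no correction for length, is a subunit of the prolyl hydroxylase that stabilises the helix and stood at 1072, 1172, 1162 and 1115 CPM in the WT libraries and 1225, 1182, 1134 and 1152 CPM in the GOAT KO libraries (log2 fold change 0.05, SE 0.058, edgeR unadjusted p = 0.378). The 3 higher genes, named after their values were seen, were P3h1 and P3h3, which encode prolyl 3-hydroxylase family proteins, and Colgalt2, a galactosyltransferase of collagen, with log2 fold changes of 0.19, 0.24 and 0.16 (edgeR unadjusted p = 0.0112, 0.0108 and 0.0295). The groups did not overlap in these 3 genes, against 1.64% of all genes that were higher without overlap, and since the genes were picked by their values this is a description. P3h1 lies in the region of chromosome 4 described for Col9a2. In the 6 libraries 6 of the 20 genes were higher and none lower, against a background of 4.81% and 4.65%.

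Of 12 tested genes for procollagen cleavage and cross-linking, 2 were higher and none lower, against 2.49% and 2.13% of all genes. These were the lysyl oxidase relatives Loxl1 and Loxl2, which cross-link fibrils (log2 fold changes 0.22 and 0.29, edgeR unadjusted p = 0.0216 and 0.0448, also named after their values were seen). Neither passed in the 6 libraries, where the log2 fold change of Loxl1 was 0.11 and that of Loxl2 stayed at 0.29 (edgeR unadjusted p = 0.141 and 0.0722). Adamts2, the protease that removes the amino-terminal propeptide of fibrillar procollagens, had the most reads of this list, at 625, 598, 570.1 and 644 CPM in the WT libraries and 556, 577, 597 and 568 CPM in the GOAT KO libraries (log2 fold change -0.08, SE 0.058, edgeR unadjusted p = 0.173). None of 9 collagen receptors passed, and Itgb1, the integrin chain shared by collagen-binding integrins, stood at 689, 694, 627 and 723 CPM in the WT libraries and 654, 689, 640.1 and 706 CPM in the GOAT KO libraries (log2 fold change -0.02, SE 0.063, edgeR unadjusted p = 0.722). In the 6 libraries the log2 fold change of Itgb1 was -0.05 (edgeR unadjusted p = 0.417). None of 6 fibril-associated proteoglycans passed in 8 libraries, while in the 6 libraries 1 of them was lower against 4.65% of all genes. This was Omd, a keratan sulphate proteoglycan named after its values were seen (log2 fold change -0.30, SE 0.096, edgeR unadjusted p = 0.0104). Ogn, the member with the most reads, stood at 514, 473, 459.5 and 545 CPM in the WT libraries and 420.4, 458, 485 and 531 CPM in the GOAT KO libraries (log2 fold change -0.07, SE 0.083, edgeR unadjusted p = 0.404). Among 16 basement membrane partners of type IV collagen 1 was higher and none lower, a share close to the 4.62% of all genes that passed. The gene was Sparc, a collagen-binding matrix protein, at 1141, 1039, 1127 and 1183 CPM in the WT libraries and 1364, 1124, 1249.7 and 1317 CPM in the GOAT KO libraries (log2 fold change 0.17, SE 0.074, edgeR unadjusted p = 0.0416), and its p was 0.127 without WT 1119, 0.0525 without WT 1120, 0.120 without GOAT KO 1139, 0.0698 without GOAT KO 1141 and 0.0998 without GOAT KO 1146 and 0.103 in the 6 libraries. No gene of the 5 lists passed an absolute log2 fold change of 0.3 in either set of libraries.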

How the data were processed

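Total RNA of 8 whole mouse ovaries (4 WT, 4 GOAT KO) was sequenced as 50 bp single reads. Per the submitters' processing notes, TopHat2 2.0.14 and StringTie 1.0.4 were used with mm10 (GRCm38). The deposited gene table holds the authors' counts of reads per known gene, as raw whole numbers. The counting tool and its use of strand are not given in the sources used here, so reads of overlapping genes on opposite strands cannot be told apart (at most 6.07% of a collagen's exon bases, for Col9a3, were shared with another gene). The deposited junction files give, per library, the counts of reads across each splice junction. The authors also deposited the percent of reads mapped. The assembled transcripts were not used for levels.

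The symbol rule uses no measured value, but collagens as a subject, the gene lists and the 6-library set were chosen with earlier results of these data known. Counts were analysed with edgeR 4.0.16 (R 4.3.3): TMM scaling, filterByExpr (at least 10 reads in a library of median size and 15 in all), and the quasi-likelihood test of GOAT KO against WT over all genes. The SE was obtained from the log2 fold change and the square root of the F statistic. CPM are TMM-normalized. CPM per kb used the transcript with the longest coding sequence in GENCODE M21 (GRCm38). Alternatives were RLE scaling, no filter, DESeq2 1.42.0, voom of limma 3.58.1, each library left out, 6 libraries, and junction reads, the last in 6 libraries and for counts added after the data were seen. Single values were compared by exact two-sided permutation. Values are named for the 10 most abundant collagens, the type IV genes, every collagen at an unadjusted p under 0.05 in 8 or 6 libraries, and the gene with the most reads, uncorrected for length, in each pathway list. The test was checked on simulated counts. Pairs of libraries within a group differed by more than sampling noise, and p-values measure the spread between animals. No protein sequences were used here.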

Additional observations from a re-analysis of the deposited data

Results flagged for a closer look

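Within each group of 4 libraries, the highest or lowest value was set against its nearest neighbour, as the share of the group's range taken by that gap. Of 92 groups (46 genes in WT and in GOAT KO libraries), 7 held a library beyond the 95% limit for 4 values, and chance alone gives about 1 in 20 groups. In 3 cases this was GOAT KO 1139, the library with the high adipose markers: Col5a3 in GOAT KO 1139 (23.7 CPM against 2.38 to 2.51 CPM, gap 0.994 of the range), Col14a1 in GOAT KO 1139 (23.3 CPM against 12.5 to 13.4 CPM, gap 0.923 of the range) and Col15a1 in GOAT KO 1139 (159.7 CPM against 92.6 to 98.0 CPM, gap 0.921 of the range). The low library was Col1a1 in GOAT KO 1140 (434 CPM against 539.7 to 556 CPM, gap 0.867 of the range) and Col5a2 in WT 1120 (112 CPM against 142 to 144 CPM, gap 0.931 of the range). The high library was Col5a2 in GOAT KO 1146 (169 CPM against 149 to 151 CPM, gap 0.862 of the range) and Col10a1 in WT 1121 (1.58 CPM against 0.889 to 0.988 CPM, gap 0.857 of the range), the last at a level of few reads.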

How the results depend on the processing

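The main comparison used edgeR on all 8 libraries. The number of collagens at an unadjusted p under 0.05 (10) ranged from 5 to 16 with single libraries left out, and moved by less than 1.5 times under the other alternatives. The number past an absolute log2 fold change of 0.5 as well (1, Col5a3) was 0 with limma-voom, 0 with DESeq2, which gave no p for Col5a3, 2 in the 6 libraries, and 0 to 3 with single libraries left out. At an adjusted p under 0.05 it was 0 with edgeR, 0 with DESeq2 and 0 with limma-voom. Over 0.3 it was 4, and 2 to 10 with single libraries left out. Class medians moved by less than the spread between libraries except with splice junction reads in 6 libraries, where the median was -0.044 for the other collagens and 0.043 for all. Over 28 named genes, 417 values under up to 15 alternatives gave 336 with the same direction and side of the unadjusted threshold, 44 that lost it, 21 that gained it and 16 that turned sign. These 16 were Col11a1 (0.013 with limma-voom, 0.085 without WT 1118, 0.061 without WT 1119, 0.007 without GOAT KO 1141), Col15a1 (-0.015 without WT 1120, -0.17 without GOAT KO 1139, -0.24 in the 6 libraries, -0.28 with their junction reads), Col4a5 (-0.037) and Col4a6 (-0.014) without WT 1120, Itgb1 (0.0025) without WT 1121, P4hb with junction reads (-0.14 in 8 and -0.21 in 6 libraries), and, with junction reads of 6 libraries, Col4a6 (-0.028), Col6a2 (-0.044) and Sparc (-0.024). With single libraries left out, the log2 fold change ranged from -0.21 to 0.085 for Col11a1, -0.17 to 0.14 for Col15a1, -0.037 to 0.14 for Col4a5, -0.014 to 0.11 for Col4a6 and -0.066 to 0.0025 for Itgb1. The cause was not tested. No analysis paired by litter was possible because the labels do not give the litter of each animal. The SE of the log2 fold change was 0.36 for Col10a1, with 126 reads in all, against 0.071 for Col6a1. It did not simply follow the number of reads, at 0.18 for Col11a1 with 56516 reads and 0.16 for Col11a2 with 471.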

Other observations

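Type IX collagen is built from the products of Col9a1, Col9a2 and Col9a3, and their messages were very unequal. Col9a2 had 34737 reads over the 8 libraries and reads on 30 annotated junctions, and stood at 84.7 CPM per kb. Col9a3 stood at 0.874 CPM per kb, and Col9a1 had 12 reads in all, at most 0.0427 CPM per kb in a library. Cartilage markers were low in every library, where 6 of them summed to 3.47 to 4.77 CPM in the WT and 3.53 to 4.97 CPM in the GOAT KO libraries. Col2a1, the main fibrillar collagen of cartilage, had 47 reads. These are values of whole ovaries, and which cells hold the Col9a2 message was not measured.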
